A study of Mus musculus with 3 samples.

Results

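Genes of cytokines, cytokine receptors, the JAK-STAT pathway and its SOCS inhibitors were examined in mouse thymocyte RNA. They were taken by name: every symbol beginning with Il and a digit, Stat, Socs, Csf, Ifna, Ifng, Tgfb, Lif or Osm, and Jak1, Jak2, Jak3, Tyk2 and Cish, with Il2rb left out. This gave 55 of the 6795 genes on the array that had a probe with 1 gene symbol, covered by 59 probes. One RNA, called CD69hi here, came from purified thymocytes of wild-type C57BL/6 (B6) mice with high surface CD69, an activation marker that appears when the T cell receptor (TCR) signals. The other came from the unseparated thymus cells of Zap70-/- mice, which lack a kinase that relays the TCR signal and whose thymocytes stop at the CD4+CD8+ stage. Both RNAs were hybridised to each of 3 spotted 2-colour arrays, with CD69hi RNA in Cy3 on arrays 1 and 2 and in Cy5 on array 3.

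Genotype, purification and the cell types present differed between the 2 RNAs together and cannot be told apart here. Nor can fewer cells of a type be told apart from less RNA per cell. The sources used here do not give the ages, sexes or number of the mice, or say whether RNA was pooled. Neither Cd69 nor Zap70 was analysed here, so the sort and the deletion were not checked. No label gives separate mice for the 3 arrays, and where they share RNA the p-values measure only technical spread. Signs depend on reading the deposited ratio as Cy5 over Cy3, which is likely but not stated. The sample titles call the Zap70-/- RNA CD69lo and put CD69hi first on arrays 1 and 2 and second on array 3, so a ratio taken in title order would run opposite to the one used here. In the reading used, the recombinase gene Rag1, typical of CD4+CD8+ cells, had log2 ratios of -1.37, -1.42 and -0.77 on arrays 1, 2 and 3. Dntt, the other gene looked at for the sign, had -1.03, -1.77 and -0.35 and did not pass (limma adjusted p = 0.12). With the opposite reading every sign below would turn. All 10 genes listed for selected and mature thymocytes were higher in CD69hi RNA (median log2 ratio 3.17), while 0 of 8 general T cell genes passed after adjustment (median -0.11). By limma, 1 of these 8 was higher and 1 lower without adjustment, meaning an unadjusted p up to 0.05 here and below. The lists were chosen with earlier results of these data known, so the 10 of 10 is no independent check of the sign or the sort.

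Most receptors of this group have no enzyme of their own. A bound cytokine brings receptor chains together, the attached JAK kinases phosphorylate them, and STAT proteins dock, are phosphorylated and move to the nucleus as transcription factors. SOCS proteins, themselves often STAT targets, then shut the receptor down. In the thymus, interleukin-7 keeps early thymocytes alive, its receptor chain is switched off at the CD4+CD8+ stage and comes back on after positive selection, and SOCS1 is known to hold cytokine signals down at the CD4+CD8+ stage. TGF-β uses receptor kinases and SMAD proteins in place of JAKs and STATs.

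Cish, Il7r and Socs3, on which results below turn, carried the core STAT element TTCNNNGAA near an annotated start of transcription, and these stretches are shown with the element in capitals. The element is its own reverse complement, so both strands were searched at once. Sequences are RefSeq's, build GRCm38.p6, written 5′ to 3′ on the gene's strand. They lie at chr9:107296654-107296683 (plus strand) for Cish, at chr15:9529984-9530044 (minus strand) for Il7r and at chr11:117969502-117969530 (minus strand) for Socs3.
Cish: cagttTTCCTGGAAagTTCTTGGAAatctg
Il7r: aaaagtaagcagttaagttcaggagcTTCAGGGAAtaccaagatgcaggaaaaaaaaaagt
Socs3: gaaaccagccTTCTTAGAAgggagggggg
Cish had 2 elements, the first at the start itself. In Il7r the element began 142 bases before the start, and in Socs3 154 bases before a start that lies inside the longer Socs3 gene record. RefSeq windows of 300 bases, from 250 before the start to 50 after, were found for 43 of the 55 genes, and 8 of these (18.6%) held the element, against 9.55% of all 27025 genes with a window and 8.30% of all windows. Beside these 3, the element was found for Il1f5, Il4, Csf2rb2, Ifnar1 and Ifnar2, none of which passed the test described next. Among genes with a window, 3 of the 13 that passed held it (23.1%), and 5 of the 30 that did not pass (16.7%). Differences between these shares were not tested. A match is a string of letters and does not show that a STAT protein binds there.

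Of the 55 genes, 12 were higher and 3 lower in CD69hi RNA at a Benjamini-Hochberg adjusted p of at most 0.05 over 8905 features (limma), and 40 did not pass. The 15 calls are 27.3% of the group, against 6.94% of all features called. By direction, 4.13% of all features were called higher and 2.81% lower. Without adjustment, 26 of the 55 genes and 2083 of the 8905 features passed (limma), the background for the unadjusted counts below. The group's median log2 ratio was 0.27, against 0.01 over all features, and 42 of its genes had a mean above 0. All 15 called genes had one sign on the 3 arrays, which the threshold in effect requires. Socs4, Il7r, Tgfbi, Il27ra and Socs3, that is 5 of 55, differed at least 2-fold on each of the 3 arrays, against 2.84% of all features. Values below are log2 ratios of CD69hi over Zap70-/- RNA, and ± is the SD over 3 arrays. Alternative fits, 8 in all, left out each array in turn, scaled the arrays to a common spread or added a dye term. Others shrank variances robustly, took the median of a symbol's probes, or left out probes with extreme ratios. The last 2 could not move the ratios of the 55 genes, so they are weak checks of these genes. None of their probes had an extreme ratio, and the median of their probes equals the mean.

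**Figure D1:**
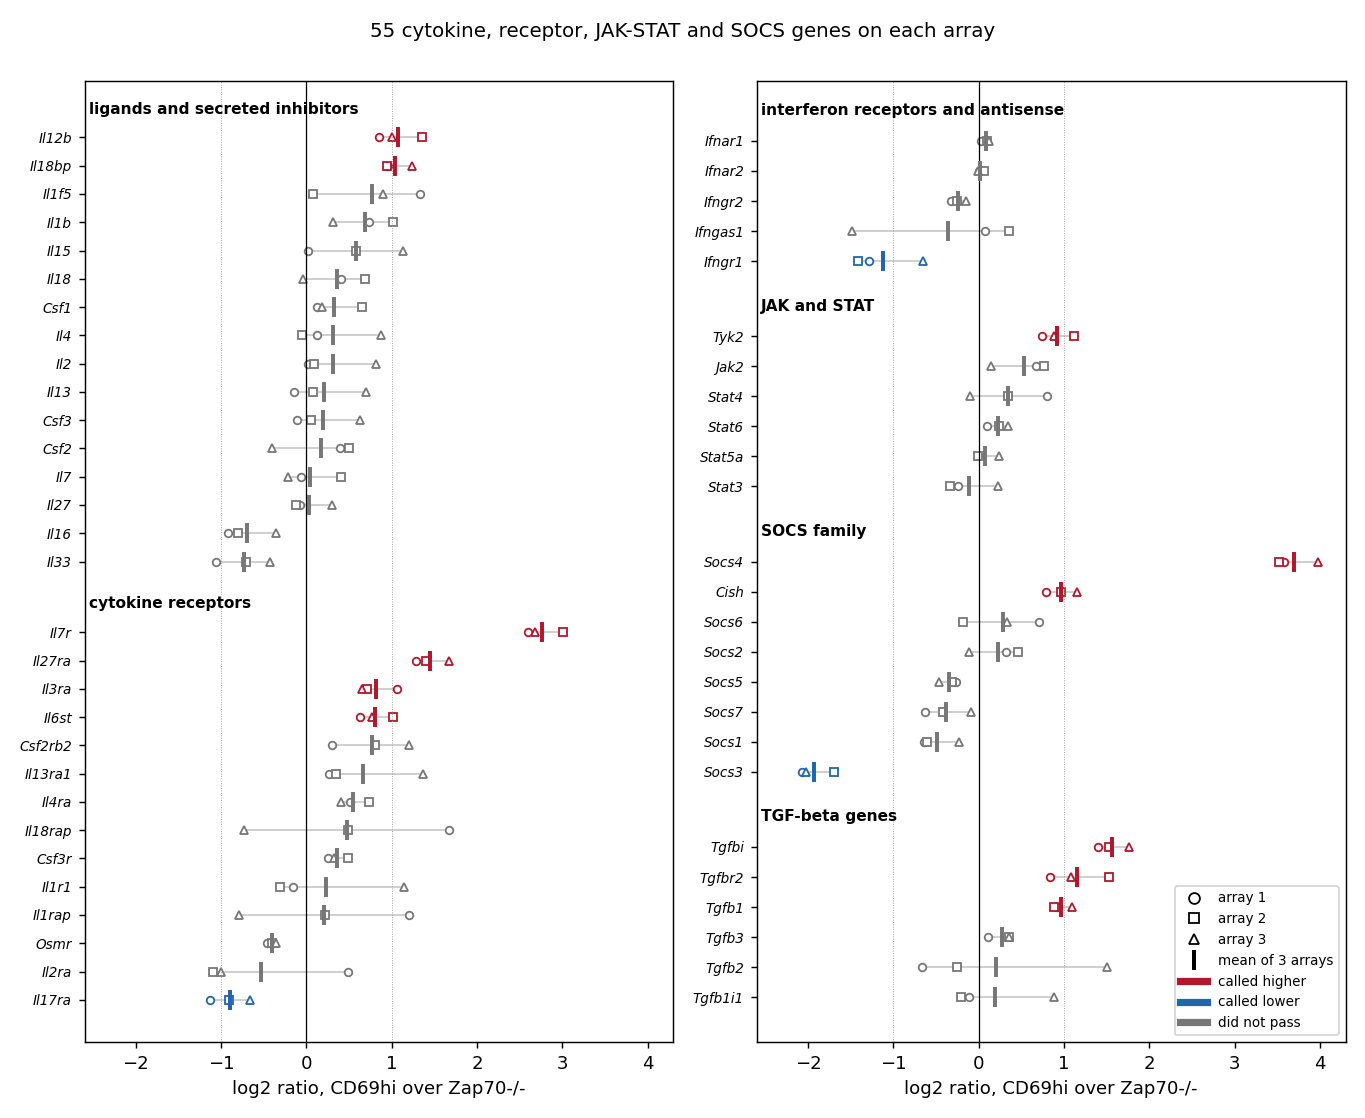
Log2 ratios of the 55 genes on each array (open symbols) with their mean (vertical bar), grouped by role; the horizontal axis is the log2 ratio of CD69hi over Zap70-/- RNA and dotted lines mark 2-fold. Socs4 and Il7r lie farthest to the right, Socs3 farthest to the left, and several uncalled genes such as Tgfb2 and Il18rap spread over both sides of 0.

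Most receptor genes had means above 0 (11 of 14). Of the 14, 4 were higher, 1 was lower and 9 did not pass (7 higher and 2 lower by limma without adjustment), and the median was 0.51. Il7r, the interleukin-7 receptor α chain, had ratios of 2.60, 3.01 and 2.68 on arrays 1, 2 and 3. Each array lay far above the median member, at 0.27, and the mean was 2.76 ± 0.22, or 6.77-fold (limma adjusted p = 0.0057). It passed in all 8 alternative fits, with adjusted p up to 0.026. Its ligand gene Il7, which thymic epithelium makes, gave -0.06, 0.41 and -0.22, scattered around 0 (adjusted p = 0.90), and its 2 probes averaged 0.02 and 0.06.

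Il27ra and Il6st encode the 2 chains of the interleukin-27 receptor, and Il6st (gp130) also serves interleukin-6 and its relatives. Il27ra was at 1.28, 1.40 and 1.67 (mean 1.45 ± 0.20, 2.73-fold, adjusted p = 0.015). Il6st was at 0.63, 1.02 and 0.76 (mean 0.80 ± 0.20, adjusted p = 0.046), and its 2 probes had means of 0.73 and 0.87. All 6 values lay above 0, but Il27ra did not pass when array 2 was left out (adjusted p = 0.067). Il6st did not pass on any 2 arrays (adjusted p from 0.066 to 0.37), after scaling (adjusted p = 0.052) or in the dye-term fit (adjusted p = 0.053). The ligand subunit gene Il27 was near 0 (0.03 ± 0.23, adjusted p = 0.91). Ebi3, the gene of the other ligand subunit and not in this group, was above 0 on every array but did not pass (0.70 ± 0.25, adjusted p = 0.071). Osmr, which pairs with gp130 in the oncostatin M receptor, had ratios of -0.46, -0.40 and -0.36, close to each other and on the other side of 0, but did not pass (adjusted p = 0.14).

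Il3ra, the interleukin-3 receptor α chain, was at 1.06, 0.71 and 0.65 (mean 0.81 ± 0.22, adjusted p = 0.048), the value just inside the threshold. It did not pass on any 2 arrays (adjusted p from 0.058 to 0.26), after scaling (adjusted p = 0.11) or in the dye-term fit (adjusted p = 0.0504). Csf2rb2, the interleukin-3 β chain, gave 0.30, 0.80 and 1.20 and did not pass (0.77 ± 0.45, adjusted p = 0.11); a closely similar gene, Csf2rb, makes its probe uncertain. The granulocyte receptor gene Csf3r was slightly above 0 on every array (0.35 ± 0.12, adjusted p = 0.20).

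Il17ra, the shared chain of interleukin-17 receptors, was lower in CD69hi RNA. Its ratios were -1.14, -0.91 and -0.66 (mean -0.90 ± 0.24, adjusted p = 0.041). All 3 arrays lay below 0, with array 3 nearest to it. The call ended when array 1 (adjusted p = 0.19) or array 2 (adjusted p = 0.25) was left out and after scaling (adjusted p = 0.093).

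The other 6 receptor genes did not pass. Il4ra, a chain of both the interleukin-4 and interleukin-13 receptors, was above 0 on every array at 0.51, 0.73 and 0.41 (adjusted p = 0.095, 95% interval of the mean 0.19 to 0.91). Il13ra1, its partner for interleukin-13, was at 0.26, 0.35 and 1.37 (adjusted p = 0.23) and passed only in the dye-term fit (adjusted p = 0.035). Il2ra, the high-affinity interleukin-2 receptor chain found on early thymocytes and activated T cells, had a mean of -0.54 ± 0.89, with array 1 above 0 and arrays 2 and 3 below (adjusted p = 0.43). The interleukin-1 and interleukin-18 receptor chain genes Il1r1, Il1rap and Il18rap also spread widely, with SDs of 0.80, 1.00 and 1.21. Their arrays lay on both sides of 0, and nothing can be said of their direction.

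Among the receptors for interferon, 1 of the 2 chains of the interferon-γ receptor was called. Ifngr1, the ligand-binding chain, had ratios of -1.29, -1.42 and -0.65 (mean -1.12 ± 0.41, 2.17-fold lower in CD69hi RNA, adjusted p = 0.045). Ifngr2, the signalling chain, had -0.33, -0.25 and -0.15 (mean -0.24 ± 0.09) and did not pass (adjusted p = 0.33). On each array Ifngr1 lay below Ifngr2, by 0.96, 1.17 and 0.50 on the log2 scale. That difference was not tested, and the Ifngr1 call ended when array 1 (adjusted p = 0.17) or array 2 (adjusted p = 0.23) was left out and after scaling (adjusted p = 0.080). The type I interferon receptor chains Ifnar1 (0.08 ± 0.05) and Ifnar2 (0.02 ± 0.04) had 2 of the 3 smallest SDs in the group and values near 0, with 95% intervals of -0.24 to 0.41 and -0.30 to 0.34. Ifngas1, an RNA antisense to the interferon-γ locus, gave 0.07, 0.36 and -1.49. Array 3 stood apart there, and a spotted probe does not read strand.

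Of 6 JAK and STAT genes, 1 was higher and 0 lower (2 and 0 by limma without adjustment). Tyk2, a JAK kinase on type I interferon and interleukin-12 family receptors, was at 0.75, 1.11 and 0.88 (mean 0.91 ± 0.19, 1.88-fold, adjusted p = 0.035). All 3 values lay above 0 within a span of 0.37, yet the call ended in each fit on 2 arrays (adjusted p from 0.057 to 0.27). Jak2, used by gp130, interleukin-3 and interferon-γ receptors, had ratios of 0.67, 0.77 and 0.14 and did not pass (adjusted p = 0.17).

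None of the 4 STAT genes analysed here passed. Stat3, activated through gp130, was at -0.24, -0.34 and 0.23, with array 3 opposite in sign to the others. Stat5a, activated by interleukin-7, was at -0.01, -0.01 and 0.24. Stat6, the interleukin-4 STAT, was at 0.10, 0.24 and 0.34, and Stat4, the interleukin-12 STAT, at 0.80, 0.35 and -0.10. Adjusted p ran from 0.37 for Stat6 to 0.78 for Stat5a. The 95% intervals of the means were -0.55 to 0.32 for Stat3, -0.27 to 0.42 for Stat5a, -0.11 to 0.57 for Stat6 and -0.20 to 0.89 for Stat4, so all 4 stay within a 2-fold difference.

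The SOCS family held both ends of the group's range. Its 8 genes include 2 that were higher, 1 that was lower and 5 that were not called (2 higher and 3 lower by limma without adjustment, median -0.06). Socs4, a member linked mainly to epidermal growth factor receptor turnover, had ratios of 3.58, 3.52 and 3.97 (mean 3.69 ± 0.25, 12.9-fold, adjusted p = 0.0051). Socs3, the inhibitor of gp130 signalling, had -2.07, -1.70 and -2.02 (mean -1.93 ± 0.20, 3.81-fold lower in CD69hi RNA, adjusted p = 0.0095). The arrays were tight for both. The distance between them was 5.65, 5.22 and 5.99 log2 units on arrays 1, 2 and 3, and both passed in all 8 alternative fits, with adjusted p up to 0.026 for Socs4 and 0.037 for Socs3. Socs4 and Socs3 each rest on 1 spotted probe, as does Il7r.

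Cish, a target and inhibitor of STAT5 signalling whose start region holds the paired STAT elements shown above, was at 0.80, 0.97 and 1.15 (mean 0.97 ± 0.18, 1.96-fold, adjusted p = 0.031). All 3 arrays were above 0, but the call ended when array 1 (adjusted p = 0.10) or array 2 (adjusted p = 0.20) was left out. Socs2, another STAT5 target, was at 0.32, 0.47 and -0.11 and did not pass (adjusted p = 0.48). Socs1, which inhibits JAK kinases directly, was below 0 on every array at -0.64, -0.61 and -0.23 (adjusted p = 0.14, 95% interval -0.88 to -0.10). Socs5 (-0.35 ± 0.10) was likewise below 0 on every array, as was Socs7 (-0.38 ± 0.27), with adjusted p = 0.20 and 0.24. The 2 probes of Socs6, which acts on receptor tyrosine kinase signals, averaged 0.04 and 0.54 and gave no common sign across arrays.

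Among the ligand genes both calls were for higher ratios. Of 16 ligands and secreted inhibitors, 2 were higher, 0 lower and 14 did not pass (4 higher and 2 lower by limma without adjustment), and the median was 0.31. Il12b, the p40 subunit shared by interleukins 12 and 23 and a product of dendritic cells and macrophages, was at 0.85, 1.36 and 1.01 (mean 1.07 ± 0.26, 2.10-fold, adjusted p = 0.032). Il18bp, a secreted trap for interleukin-18, was at 0.96, 0.94 and 1.23 (mean 1.04 ± 0.16, adjusted p = 0.027). Both lay above 0 on every array, and so did the median of the macrophage, dendritic cell and monocyte markers described below (1.42, with 14 of 22 genes higher), whose part in these ratios was not tested. The Il12b call ended in each fit on 2 arrays (adjusted p from 0.058 to 0.21), and that of Il18bp when array 1 (adjusted p = 0.10) or array 2 (adjusted p = 0.15) was left out.

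Il33 and Il16 were the lowest ligands and came nearest to the threshold from outside. Il33, an alarmin of the interleukin-1 family, had -1.06, -0.71 and -0.43 (adjusted p = 0.081). Il16, made by T cells as a precursor that is cut to a CD4 ligand, had -0.92, -0.80 and -0.36 (adjusted p = 0.086) and passed when array 3 was left out (adjusted p = 0.045) and in the dye-term fit (adjusted p = 0.047). Both were below 0 on every array, with array 3 nearest to 0. On the other side, Il1b, a myeloid inflammatory cytokine, had 0.73, 1.02 and 0.31 (adjusted p = 0.11). Il15, which supports memory and innate-like T cells, had 0.02, 0.58 and 1.13 (adjusted p = 0.24), and Il1f5, the interleukin-36 receptor antagonist, had 1.33, 0.08 and 0.90 (adjusted p = 0.18). The T cell cytokine genes Il2, Il4, Il13 and Csf2 had means from 0.17 to 0.31 and did not pass. Csf1, Csf3 and Il18 lay between 0.19 and 0.35 and did not pass either.

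TGF-β genes were higher in 3 of 6 cases, with 0 lower, also without adjustment (limma), and a median of 0.62. Tgfb1, the isoform made by lymphocytes, was at 0.92, 0.88 and 1.09 (mean 0.97 ± 0.11, 1.95-fold, adjusted p = 0.028). Tgfbr2, the ligand-binding receptor kinase, was at 0.84, 1.52 and 1.08 (mean 1.15 ± 0.35, adjusted p = 0.036). Tgfbi, a matrix protein named for its induction by TGF-β, was at 1.40, 1.53 and 1.76 (mean 1.56 ± 0.18, 2.96-fold, adjusted p = 0.013). All 9 of these values were above 0.8, beside the same macrophage and dendritic cell marker median of 1.42. Tgfbi failed to pass only when array 2 was left out (adjusted p = 0.056), Tgfb1 when array 1 (adjusted p = 0.12) or array 2 (adjusted p = 0.18) was left out. For Tgfbr2 the call ended in each fit on 2 arrays (adjusted p from 0.068 to 0.20) and in the dye-term fit (adjusted p = 0.055). The other isoforms did not pass: Tgfb3 was at 0.11, 0.36 and 0.35 (adjusted p = 0.30), below Tgfb1 on each array by 0.81, 0.52 and 0.74. Tgfb2 (-0.66, -0.25 and 1.51) and the focal adhesion protein gene Tgfb1i1 (-0.11, -0.20 and 0.88) had opposite signs in the 2 dye orientations.

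**Figure D2:**
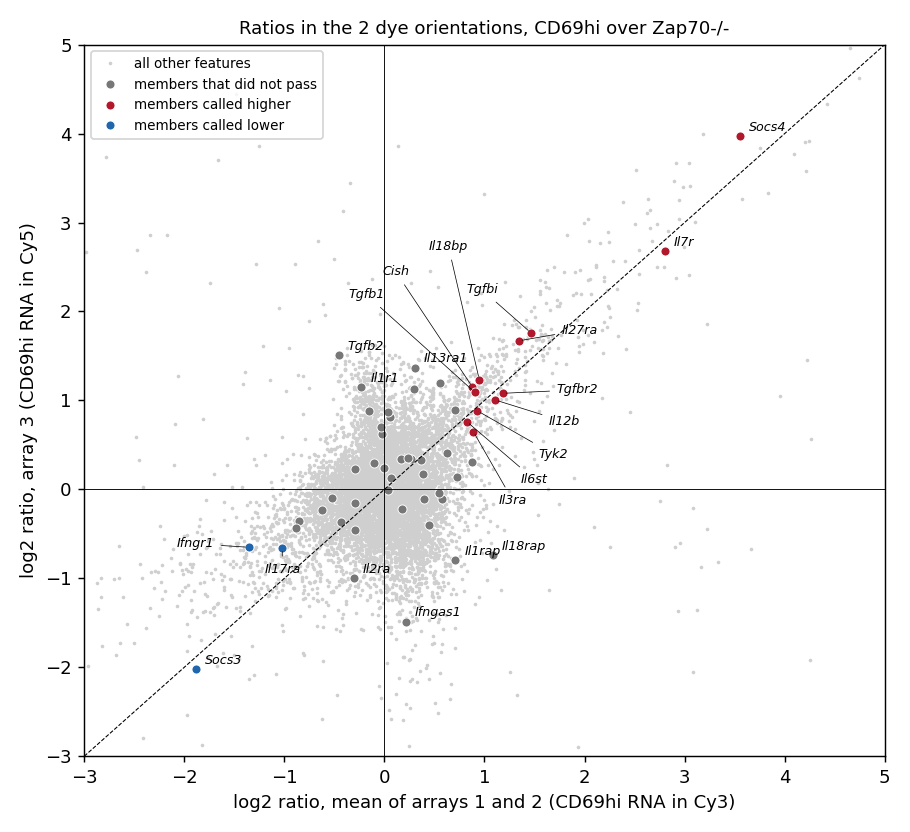
Each point is a gene or unnamed probe, with the mean log2 ratio of arrays 1 and 2 (CD69hi RNA in Cy3) on the horizontal axis and array 3 (CD69hi RNA in Cy5) on the vertical axis; the dashed line marks equality, and features beyond the axis limits are not drawn. The 15 called genes lie near the line, and the test itself favours genes with a small spread between arrays. Tgfb2, Il1r1, Il18rap, Il1rap and Ifngas1 lie in the quadrants where the orientations differ in sign.

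The members were also compared between the dye orientations. Before turning, array 3 correlated with arrays 1 and 2 at r = -0.25 and -0.40 across all probes, and arrays 1 and 2 at r = 0.61; probes are not independent replicates. One sign on all 3 arrays was seen in 35 of the 55 genes (63.6%), against 47.0% of all features. The 35 include the 15 called genes, for which the threshold in effect requires it. Among the 40 uncalled genes, 20 had one sign. The 15 called genes spanned at most 1 log2 unit between arrays, and 10 of the 40 uncalled genes spanned more. The test itself favours genes with a small spread, so this difference is built into the calls. A dye term was called for 0 of the 55 genes and 0 of all 8905 features, in a fit with 1 residual degree of freedom. Without adjustment it passed for 12 of the 55 genes and 2161 of the 8905 features (limma, unadjusted p up to 0.05). With so few degrees of freedom, 0 calls do not show that the dye had no effect. Only array 3 had its orientation, so a dye effect cannot be told apart from an effect of that array.

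**Figure D3:**
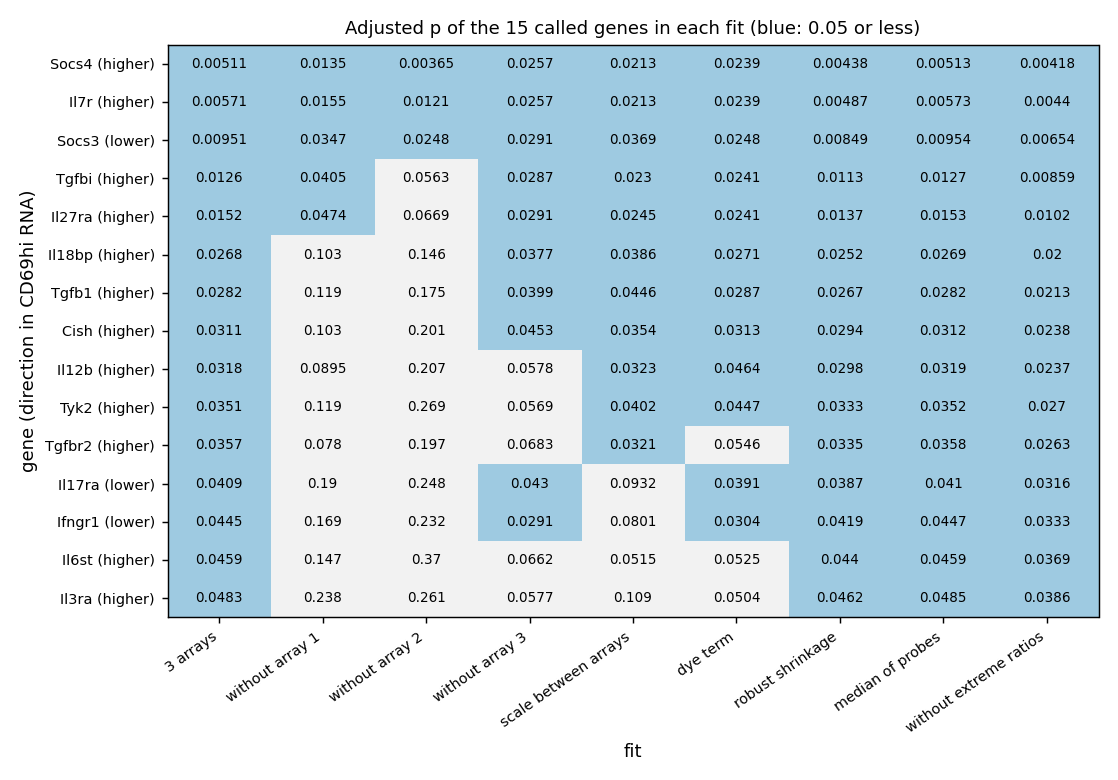
Adjusted p (limma, Benjamini-Hochberg over all features) of the 15 called genes in the fit on 3 arrays and in 8 alternative fits, with values of at most 0.05 in blue. Socs4, Il7r and Socs3 are blue in every column, and 5 genes (Il12b, Tyk2, Tgfbr2, Il6st and Il3ra) are grey in all 3 fits on 2 arrays.

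The calls were sensitive to the arrays used. Socs4, Il7r and Socs3 passed in every fit shown in the plot of adjusted p. On 2 arrays, the group had 4 genes higher and 1 lower without array 1 (2.26% of all features called), 2 and 1 without array 2 (1.34%), and 7 and 4 without array 3 (7.77%). In the last of these fits the CD69hi RNA was in Cy3 throughout, so dye and RNA cannot be told apart there.

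Other genes of these pathways were taken from 5 lists. Over all 8905 features, 6.94% were called and 2083 had an unadjusted p up to 0.05 (limma). Of 23 JAK-STAT regulators (phosphatases, PIAS proteins, adaptors and ubiquitin ligases) 0 were higher and 1 was lower (4 each by limma without adjustment), with a median of 0.06. The 1 was Cbl, a ubiquitin ligase for receptors and kinases (-1.12 ± 0.27, adjusted p = 0.031), whose call ended when array 1 (adjusted p = 0.13) or array 2 (adjusted p = 0.18) was left out and after scaling (adjusted p = 0.072). Of 25 genes known as STAT targets or as cytokine-dependent survival and cycle genes, 10 were higher, 2 lower and 13 did not pass (11 higher and 5 lower by limma without adjustment, median 0.29). The highest were Id2, an inhibitor of E proteins (2.81 ± 0.42), the cyclin Ccnd2 (2.67 ± 0.84), the interferon-induced gene Ifit3 (1.94 ± 0.22) and Irf9, the partner of STATs in type I interferon signalling (1.64 ± 0.50). Ccnd2 did not pass when array 3 was left out (adjusted p = 0.063), nor Irf9 when array 2 (adjusted p = 0.096) or array 3 (adjusted p = 0.062) was left out. The 2 that were lower, named after their values were seen, were the kinase gene Pim1 (-1.25 ± 0.33) and the survival gene Bcl2l1 (-0.99 ± 0.13). Neither passed when array 1 (adjusted p = 0.11 and 0.13) or array 2 (adjusted p = 0.15 and 0.20) was left out, or after scaling (adjusted p = 0.068 and 0.060).

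In the TGF-β and SMAD list, 3 of 25 genes were higher and 0 lower (5 and 1 by limma without adjustment, median 0.08). They were the type I receptor Acvrl1 (2.90 ± 0.17, adjusted p = 0.0051), the co-receptor endoglin, Eng (1.57 ± 0.03, adjusted p = 0.010), and the inhibitory SMAD Smad7 (1.30 ± 0.24, adjusted p = 0.022). Smad7 did not pass when array 1 (adjusted p = 0.072) or array 2 (adjusted p = 0.12) was left out, and Eng and Acvrl1 passed in every fit on 2 arrays. Of 14 other haematopoietic ligands and receptors, 1 was higher and 0 lower (3 and 0 by limma without adjustment), namely Flt3l, the ligand of the progenitor receptor FLT3 (0.75, 1.85 and 1.91 on arrays 1, 2 and 3, adjusted p = 0.048), which did not pass when array 2 was left out (adjusted p = 0.17), when array 3 was left out (adjusted p = 0.10) or in the dye-term fit (adjusted p = 0.058). Of 9 interleukin-1 and Toll receptor genes, 2 were higher and 0 lower (5 and 1 by limma without adjustment), Tlr1 (0.82 ± 0.18) and Sigirr (0.69 ± 0.03), a receptor that restrains this pathway. Neither passed on any 2 arrays (adjusted p from 0.051 to 0.38) or after scaling (adjusted p = 0.051 and 0.069).

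**Figure D4:**
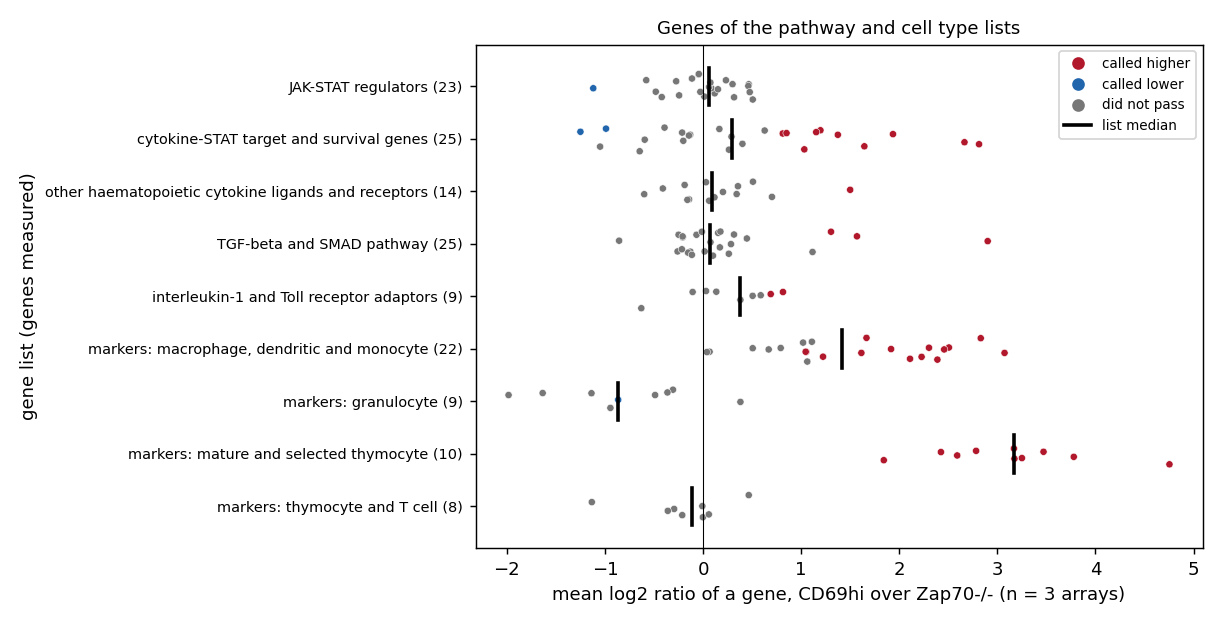
Mean log2 ratios (horizontal axis, CD69hi over Zap70-/-, n = 3 arrays) of the genes in 5 pathway lists and 4 lists of cell type markers, with called genes in red (higher) or blue (lower) and the list median as a black bar; vertical scatter within a list has no meaning. Pathway lists have medians from 0.06 to 0.38, and the macrophage, dendritic cell and monocyte markers have a median of 1.42.

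Lists of markers of other cells differed in direction and in the share called. Of 22 macrophage, dendritic cell and monocyte genes 14 were higher in CD69hi RNA and 0 lower (20 and 0 by limma without adjustment), with list medians of 1.32, 1.66 and 1.51 on arrays 1, 2 and 3. Such cells are known to express Il12b, Il18bp, Il1b, Il3ra, Tgfbi, Tgfb1 and Il6st. This list is not complete and holds only genes with means above 0. Whether such cells also express the genes called lower (Socs3, Ifngr1 and Il17ra) was not considered. The list therefore cannot show which way such cells would move the group. The part of such cells in any of these ratios was not tested. Of 9 granulocyte genes 0 were higher and 1 lower (0 and 7 without adjustment, median -0.86), while the granulocyte receptor gene Csf3r had 0.35. Among 9 natural killer and innate-like genes 2 were higher and 1 lower (6 and 1 without adjustment, median 0.63), and among 8 B cell genes 1 was higher and 0 lower (3 and 0 without adjustment, median 0.22). The thymic epithelium and stroma list, whose cells are the source of interleukin-7, had 0 of 10 called (0 higher and 2 lower without adjustment, median -0.18), the erythroid list 0 of 3 (1 and 0 without adjustment, median 0.08), and the list of early CD4-CD8- thymocytes 1 higher and 1 lower of 5 (2 and 1 without adjustment, median 0.05). The deposited ratios carry no level of any of these markers in either RNA.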

How the data were processed

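The deposited table holds, for 9596 probes, a log ratio from each array, read here as log2. The sources used here do not state its base, the background correction or the normalization. Spot intensities were not used, so dim spots were kept. If the logarithm was natural, fold changes would be larger. Ratios of arrays 1 and 2 were multiplied by -1 by the labelled dyes. The 7486 probes with 1 symbol in the platform annotation were averaged per symbol; 483 had several symbols and 1627 none there. Of the 55 genes, 51 had 1 probe. Each of 8905 features was fitted with limma 3.58.1 in R 4.3.3 (1 coefficient, eBayes, 2 residual and 2.75 prior degrees of freedom), with two-sided p-values adjusted by Benjamini-Hochberg at 0.05. The 3 arrays limit the precision.

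Simulations drew variances from the fitted spread between these arrays. In them 13.6% of log2 changes of 1 and 84.0% of changes of 2 were found over 8905 features. Summed over repeated runs, 27 of 515 calls were false. A gene that did not pass is therefore not shown to be unchanged. Each run changed fewer features than the 618 called in these data, with independent normal noise and no dye effect. The shares found may therefore differ in these data. Alternatives were leaving out each array, scaling between arrays, a dye term, robust shrinkage, the median of probes, and leaving out probes with a ratio beyond 4. The genes and lists were chosen with earlier results of these data known. By the naming rule, every called gene, the interleukin-7, JAK, STAT, SOCS, TGF-β and interferon genes, other genes with a mean of at least 0.5 in size, and up to 4 called genes of each list were named. Further genes were named after their values were seen, to account for the group. Promoter windows are RefSeq's (GRCm38.p6). The probes carry no genome build, so no gene coordinates are given beyond these windows.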

Additional observations from a re-analysis of the deposited data

How the results depend on the processing

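Over the 3 fits on 2 arrays, the genes called higher numbered 2 to 7 (12 with all arrays) and those called lower 1 to 4 (3 with all arrays). Scaling left 1 called lower, and over all features it left 85 called lower, against 250 in the main fit. In these fits the lists gave 0 to 1 lower for JAK-STAT regulators, 3 to 8 higher and 0 to 5 lower for STAT targets and survival genes, 0 to 1 higher for other haematopoietic genes, and 0 higher and 0 to 1 lower for interleukin-1 and Toll genes. Scaling gave 0 lower for JAK-STAT regulators and for STAT targets and 0 higher for interleukin-1 and Toll genes. A dye term gave 4 lower STAT targets, 0 higher and 1 lower other haematopoietic gene and 1 lower TGF-β gene. Without ratios beyond 4, 1 TGF-β list gene was lower. The calls over all features moved as well. They were 4.15% after scaling, 12.1% with a dye term and 7.99% without ratios beyond 4, against 6.94% in the main fit. With a dye term, 514 of all features were called lower, against 250 in the main fit. Robust shrinkage changed no call among the 55 genes. The median of probes changed none either, but it could not move their ratios. Signs turned in some fit on 2 arrays for Csf2 (-0.0035 to 0.45), Csf3 (-0.029 to 0.34), Ifngas1 (-0.71 to 0.21), Il13 (-0.035 to 0.38), Il18rap (-0.12 to 1.08), Il1r1 (-0.23 to 0.49), Il1rap (-0.29 to 0.71), Il27 (-0.10 to 0.11), Il7 (-0.14 to 0.17), Stat5a (-0.0080 to 0.12), Tgfb1i1 (-0.16 to 0.39) and Tgfb2 (-0.46 to 0.63), and with a dye term for Il1rap (-0.042) and Il7 (-0.022). The cause was not tested. Each array carries both RNAs and gives 1 ratio, so the test of the mean ratio is already paired within arrays.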
